A study of Ophthalmotilapia nasuta and Ophthalmotilapia ventralis with 60 samples.

Results

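The cerebellum of 5 Ophthalmotilapia nasuta females was compared with the cerebellum of 5 O. ventralis females, both mouthbrooding cichlid fishes of Lake Tanganyika. The libraries are those whose labels name the cerebellum, 10 of the 60 in the series, and each came from a different fish. The O. nasuta females and the O. ventralis females were mature, wild-caught fish, the O. nasuta collected at Mtosi and the O. ventralis at Ulwile Island. Each species had an aquarium of its own, and both aquaria stood in 1 room with the same light cycle, temperature and care. The aquarium of O. ventralis was slightly smaller than that of O. nasuta. All were killed on the same day, the O. nasuta before the O. ventralis, and the cerebellum was the part taken out first from every fish. Species therefore coincides with locality, aquarium and order of dissection, and their parts in any difference cannot be told apart. Sequencing read the 3′ ends of mRNA, and the reads of both species were mapped to the genome of another cichlid, Oreochromis niloticus, and whether the reads of both map equally well to each gene was not tested.

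The cerebellum coordinates movement and balance, and in fish it also takes part in the learning of responses and in the control of posture in the water. Most of its cells are small excitatory granule cells, which are marked by zic family transcription factors. Granule cells send their axons to the Purkinje cells, large inhibitory neurons of the cerebellar cortex that are supported by radial or Bergmann glia.

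The 5 O. nasuta libraries held 225512 to 745454 counts in genes and the 5 O. ventralis libraries 344892 to 1531632, which did not differ beyond the spread between fish (exact permutation test, two-sided, adjusted p = 0.468 over 9 library measures). The share of uniquely mapped reads that fell in genes was 82.1 to 83.3% in O. nasuta and 84.1 to 85.3% in O. ventralis, and the groups did not overlap (exact permutation test, adjusted p = 0.0238). Mitochondrial genes took 0.957 to 1.32% of the counts in O. nasuta and 1.28 to 1.49% in O. ventralis (exact permutation test, adjusted p = 0.0357). Genes named only by a locus number took 46.3 to 46.7% in O. nasuta and 46.0 to 46.2% in O. ventralis, without overlap (exact permutation test, adjusted p = 0.0238). The part of these shares in the differences between single genes was not tested. Granule cell markers were high in all 10 libraries. The 7 present among the counted genes summed to 8319 to 9699 CPM (counts scaled to a fixed library total) in O. nasuta and 9084 to 11109 CPM in O. ventralis. Of the 7, cbln1 and en2 reached at most 2.61 and 10.7 CPM. The Purkinje cell markers were less specific, at 1640 to 2171 CPM in O. nasuta and 1499 to 1738 CPM in O. ventralis, against a mean of 1393 CPM in the optic tectum. Glia markers were at 1134 to 1330 CPM in O. nasuta and 1156 to 1505 CPM in O. ventralis, below the diencephalon mean of 3362 CPM. Oligodendrocyte markers were at 360 to 443 CPM in O. nasuta and 313 to 454 CPM in O. ventralis, against 313 CPM in the brain stem. Defining markers of the other brain parts were low, with sums of 0 to 6.32 CPM in O. nasuta, against 0 CPM in O. ventralis for the brain stem, and of 0 to 9.70 CPM in O. nasuta, against 0 to 2.84 CPM in O. ventralis for the optic tectum. The sums were 1.34 to 6.46 CPM in O. nasuta, against 0 to 5.68 CPM in O. ventralis for the diencephalon, and 4.21 to 16.2 CPM in O. nasuta, against 2.84 to 11.6 CPM in O. ventralis for the telencephalon and olfactory bulbs. Leukocyte and microglia markers summed to 3.23 to 8.87 CPM in O. nasuta, against 8.45 to 11.8 CPM in O. ventralis, and meninges markers to 23.4 to 42.9 CPM in O. nasuta, against 27.1 to 48.3 CPM in O. ventralis.

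Every cerebellum had its nearest neighbour within its own species, in 10 of 10 libraries. The leading log2 fold change, which averages the top 500 differences of a pair of libraries, was 1.57 on average within O. nasuta, 1.40 within O. ventralis and 1.70 between the species. Of the summed squared distances, 24.1% lay between species (exact permutation test, two-sided, p = 0.00794, the smallest that 5 against 5 fish allow). The highest share of any other split of the 10 fish was 16.3%. O. nasuta fish 1, the shallowest of the 10 libraries, stood apart from the other 4 along the second dimension. Without it the share was 26.2%, and it was 23.6 to 25.8% without each of the other fish in turn.

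**Figure D1:**
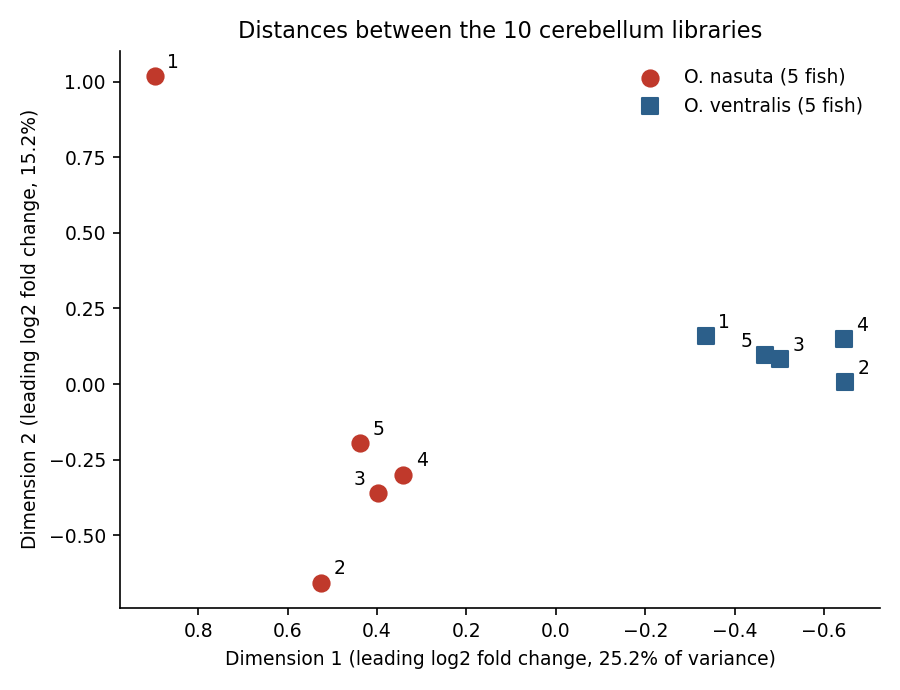
Multidimensional scaling of the 10 cerebellum libraries; both axes are in units of the leading log2 fold change, taken from the top 500 genes of a pair, circles are O. nasuta, squares are O. ventralis and the numbers are the fish. Dimension 1 (25.2% of the variance) separated the species, and O. nasuta fish 1 lay apart along dimension 2 (15.2%).

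Of the 8051 genes tested (those above 15 CPM in at least 4 of the 10 libraries), 468 (5.81%) differed between the species at an adjusted p below 0.05 by edgeR's quasi-likelihood test. In O. nasuta 254 genes (3.15%) were higher and 214 (2.66%) were lower than in O. ventralis. The differences were mostly moderate: the median change was 1.80-fold among the genes higher in O. nasuta and 1.73-fold among those lower, and 166 of the 468 had a fitted change over 2-fold. The 5 O. nasuta fish did not overlap with the 5 O. ventralis fish in 300 of the 468 genes, against 459 (5.7%) of all genes tested. Only 18 genes (0.224%) changed by more than 2-fold when that limit itself was tested, 13 higher (0.161%) and 5 lower (0.0621%) in O. nasuta. That count was 11 without O. nasuta fish 3. Genes that the annotation names only by a locus number made up 242 of the 468, or 7.08% of 3419 such genes, while 4.88% of the 4632 genes with a symbol were called.

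**Figure D2:**
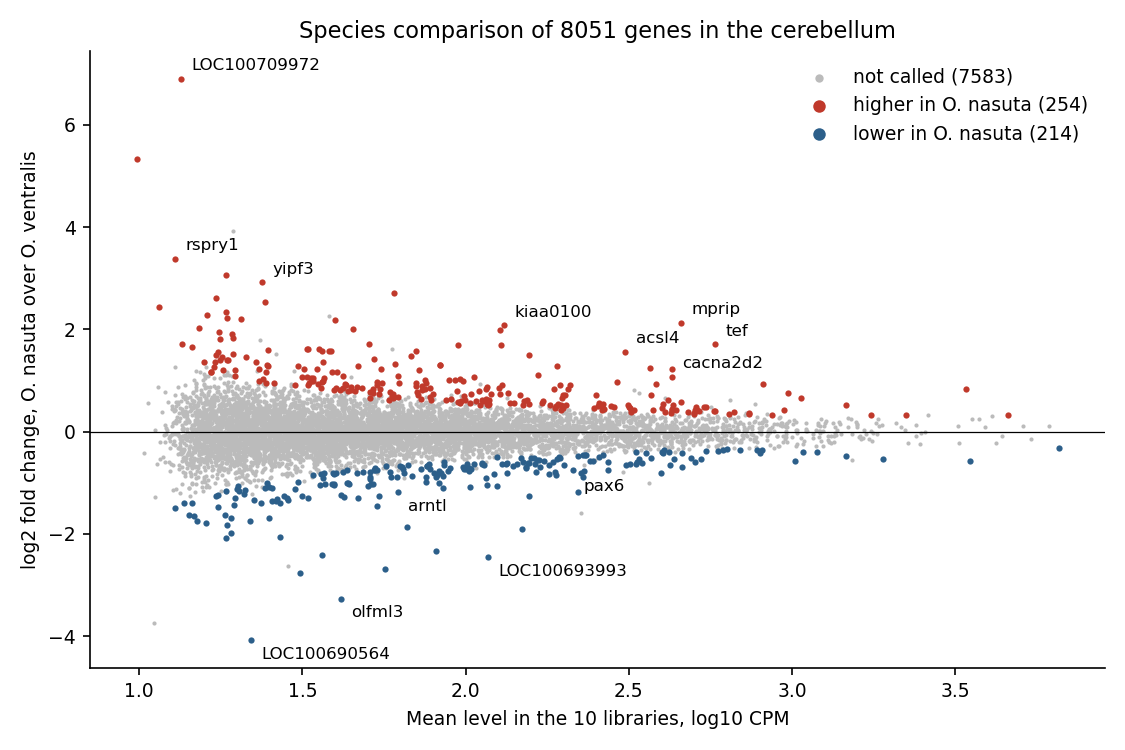
Each point is 1 of 8051 genes; the x axis is the mean level over the 10 libraries in log10 CPM and the y axis the log2 fold change of O. nasuta over O. ventralis. The 254 genes higher in O. nasuta are red and the 214 lower genes are blue; LOC100709972 had no read in O. ventralis, so that its fitted change depends on the prior count of the fit.

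The genes cacna2d2, acsl4, kiaa0100, gdf10, yipf3 and rab35 were among those with the lowest p that were higher in O. nasuta. They were not particular to the cerebellum. In fits within the other 5 parts, cacna2d2, acsl4, yipf3 and rab35 were each called higher in 4 and kiaa0100 in 3. The gene gdf10 was tested in 1 of these parts, the brain stem, and was called higher there (log2 fold change 1.31, adjusted p = 0.0241). For acsl4 the log2 fold change was 2.07 in the telencephalon, above its cerebellum value. All levels below are CPM in the tested genes, scaled by TMM, with the values of fish 1 to 5 in that order and errors given as SD over 5 fish. The auxiliary calcium channel subunit cacna2d2, whose loss gives ataxia in mice, was at 604, 544, 589, 533 and 639 CPM in O. nasuta and at 308, 247, 294, 268 and 262 CPM in O. ventralis. Every O. nasuta cerebellum was above every O. ventralis cerebellum, and the spread within a species was small beside the gap (log2 fold change 1.07 ± 0.11 SE, adjusted p = 5.16e-09). Levels of acsl4, an acyl-CoA synthetase that prefers arachidonic acid, were 384, 514, 600.4, 286 and 516 CPM in O. nasuta, against 144, 159, 178, 142 and 166 CPM in O. ventralis. The O. nasuta fish were spread more widely but none came near the O. ventralis range (log2 fold change 1.56 ± 0.15 SE, adjusted p = 1.21e-08), and acsl4 was 1 of the 18 genes beyond 2-fold (adjusted p = 0.0316 in that test).

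The gene kiaa0100 was at 187, 145, 257, 149.5 and 321 CPM in O. nasuta, against 55.4, 47.4, 50.4, 54.3 and 48.2 CPM in O. ventralis. Its O. ventralis values lay close together and its O. nasuta values did not (log2 fold change 2.08 ± 0.20 SE, adjusted p = 5.16e-09). The growth factor gene gdf10, a member of the bone morphogenetic protein family that Bergmann glia express in mice, stood at 323, 162, 217, 165 and 289.9 CPM in O. nasuta, against 82.4, 74.0, 86.1, 81.4 and 85.7 CPM in O. ventralis. It was higher in all 5 O. nasuta (log2 fold change 1.49 ± 0.17 SE, adjusted p = 6.41e-08), and it was the only 1 of 8 tested genes of radial and Bergmann glia that was called (12.5%, against 5.81% of all genes). The glial fatty acid binding protein fabp7 and the glutamate transporter slc1a2 had log2 fold changes of -0.21 and 0.00, with adjusted p of 0.310 and 0.989.

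The gene yipf3 encodes a protein of the Golgi membrane and rab35 a small GTPase of endosome recycling. The level of yipf3 was 60.8, 27.0, 37.7, 46.9 and 39.6 CPM in O. nasuta, against 4.73, 3.80, 5.93, 3.01 and 8.93 CPM in O. ventralis. For rab35 the levels were 60.8, 67.6, 86.4, 71.4 and 75.0 CPM in O. nasuta, against 19.6, 24.7, 23.7, 12.1 and 8.93 CPM in O. ventralis. Both were low genes in O. ventralis and separated the species without overlap, with log2 fold changes of 2.92 ± 0.35 and 2.01 ± 0.24 SE and adjusted p of 1.68e-07 and 2.12e-07.

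Also higher in O. nasuta were the organic anion exporter abcc5 (102 ± 10.1 CPM in O. nasuta, 34.4 ± 11.6 CPM in O. ventralis), wnk3, a kinase that acts on cation-chloride cotransporters (119 ± 29.0 CPM in O. nasuta, against 47.9 ± 9.05 CPM in O. ventralis), and the AMPA receptor auxiliary protein shisa9 (1217 ± 202 CPM in O. nasuta, against 725 ± 86.5 CPM in O. ventralis). The dehydrogenase gene dhrs12 averaged 143 ± 39.7 CPM in O. nasuta, against 46.5 ± 17.3 CPM in O. ventralis. Log2 fold changes of these 4 genes were 1.48, 1.31, 0.75 and 1.69, with adjusted p between 3.22e-06 and 3.20e-05, and none of the 4 had overlapping groups. In the other 5 parts wnk3 and dhrs12 were each called higher in 4, shisa9 in 2 and abcc5 in 1.

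Among the further genes with the largest changes upward, rspry1 averaged 23.6 ± 9.96 CPM in O. nasuta, against 2.11 ± 2.45 CPM in O. ventralis (log2 fold change 3.38), and oraov1 32.5 ± 13.5 CPM in O. nasuta, against 4.42 ± 7.02 CPM in O. ventralis (log2 fold change 3.06). The gene dnajc19, which encodes a co-chaperone of the mitochondrial inner membrane, averaged 28.4 ± 11.9 CPM in O. nasuta, against 5.95 ± 3.56 CPM in O. ventralis (log2 fold change 2.61), and tada1, a subunit of the SAGA chromatin complex, averaged 26.8 ± 6.54 CPM in O. nasuta, against 8.36 ± 5.82 CPM in O. ventralis (log2 fold change 1.94). Their adjusted p were 4.58e-05, 0.0130, 4.58e-05 and 0.00219, and of the 4 only dnajc19 had overlapping groups. The call of oraov1 was lost with DESeq2 (adjusted p = 0.132) and that of tada1 after thinning of all libraries to the depth of the shallowest (adjusted p = 0.117).

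The myosin phosphatase partner mprip was at 791, 886, 587, 689.5 and 786 CPM in O. nasuta and at 143, 104, 83.1, 72.3 and 418 CPM in O. ventralis. O. ventralis fish 5 was far above the other 4 of its species and still below every O. nasuta (log2 fold change 2.13 ± 0.45 SE, adjusted p = 0.0295). That call was lost in 12 of 19 alternatives, with adjusted p of up to 0.0754.

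**Figure D3:**
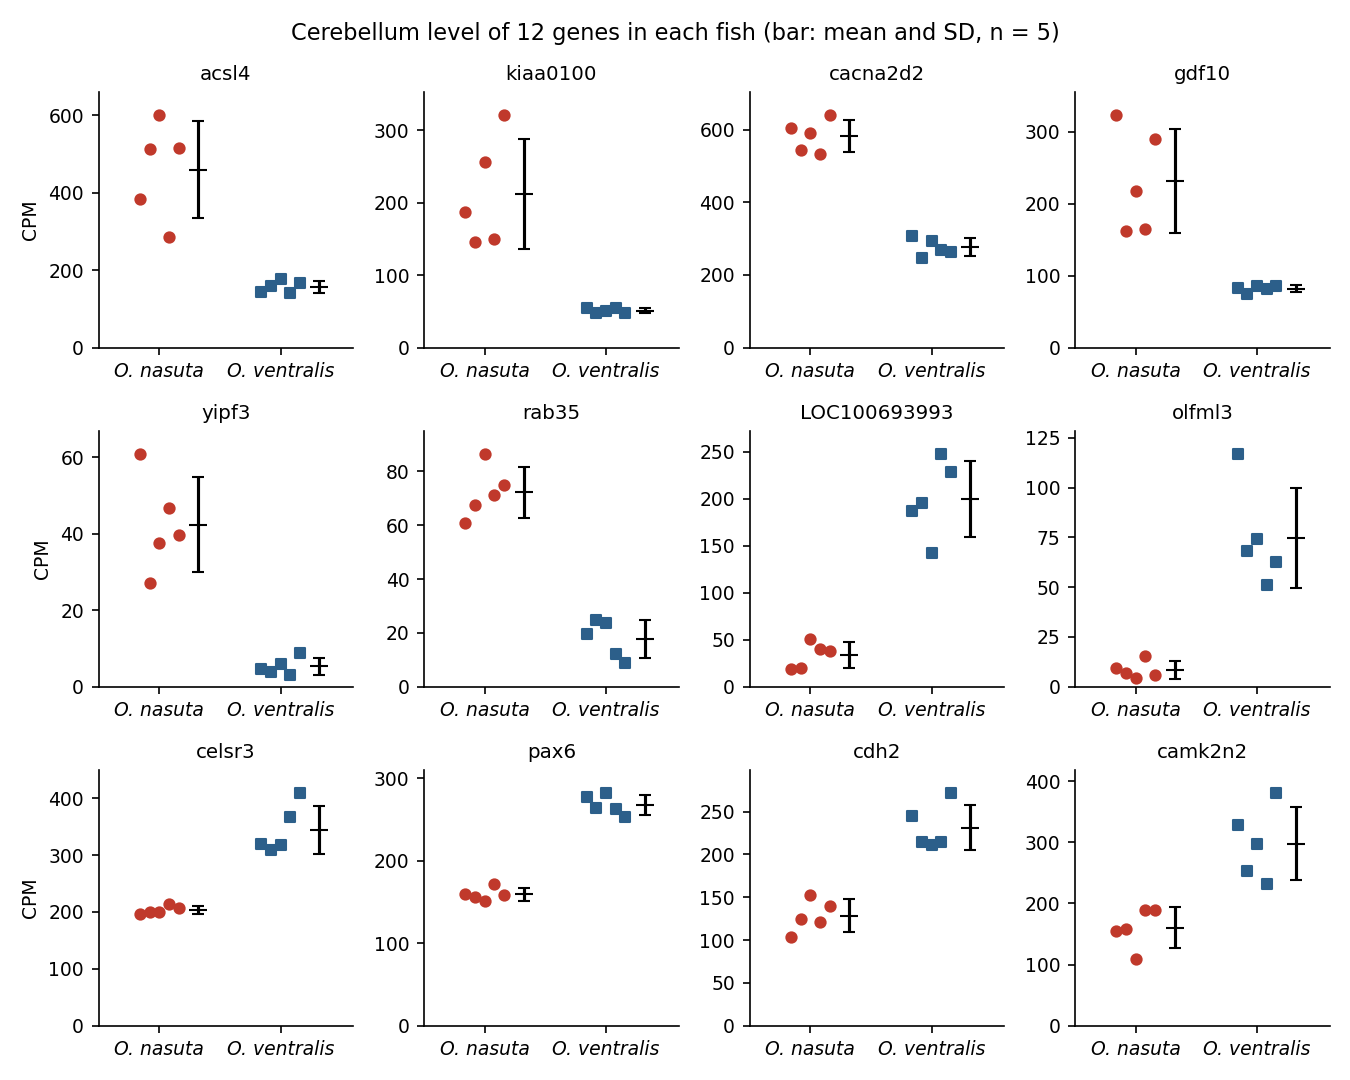
Level in CPM of 12 genes in each cerebellum; circles are O. nasuta and squares O. ventralis, each in the order of the fish numbers, and the bars give the mean and SD over 5 fish. None of the 12 genes had overlapping groups; the first 6 panels are higher and the last 6 lower in O. nasuta.

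The lowest p of all 8051 genes was that of LOC100693993, a locus lower in O. nasuta that the study annotates with the circadian regulation of gene expression. Its levels were 18.7, 20.3, 51.0, 40.2 and 38.2 CPM in O. nasuta, against 186, 195, 142, 247 and 229 CPM in O. ventralis. All 5 O. nasuta were far below the lowest O. ventralis (log2 fold change -2.45 ± 0.20 SE, adjusted p = 3.00e-11). The gene olfml3, which encodes a secreted olfactomedin-like protein, was at 9.36, 6.76, 4.43, 15.6 and 5.66 CPM in O. nasuta and at 117, 68.3, 74.2, 51.2 and 62.5 CPM in O. ventralis. The highest O. nasuta value was far below the lowest of O. ventralis (log2 fold change -3.27 ± 0.32 SE, adjusted p = 2.95e-09).

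The gene celsr3 encodes an atypical cadherin of axon guidance and cdh2 the neuronal cadherin. Levels of celsr3 were 197, 199, 199, 214 and 206 CPM in O. nasuta, against 319, 309, 318, 368 and 409 CPM in O. ventralis. Those of cdh2 were 102.9, 125, 153, 121 and 140.0 CPM in O. nasuta, against 244, 214, 211, 214 and 271 CPM in O. ventralis. For both the groups were apart in all fish, with log2 fold changes of -0.75 ± 0.12 and -0.83 ± 0.14 SE and adjusted p of 5.94e-05 and 9.37e-05. Of 9 cadherin and protocadherin genes tested, cdh2 and pcdh7 fell and none rose (22.2% called, against 5.81% of all genes). The family as a whole was not shifted downward, since 5 of the 9 had values above 0 and the median log2 fold change was 0.02. The call of pcdh7 (log2 fold change -0.46, adjusted p = 0.0195) was lost in 4 of 19 alternatives, with adjusted p of up to 0.0818.

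In the granule cell list 2 of 18 tested genes (11.1%, against 5.81% of all genes) fell and none rose. The transcription factor pax6, which granule cells and their precursors express, was at 159, 156, 151, 172 and 158 CPM in O. nasuta and at 278, 264, 282, 262 and 254 CPM in O. ventralis. The spread within each species was small beside the difference (log2 fold change -0.75 ± 0.13 SE, adjusted p = 9.11e-05). The second was reln, the extracellular protein reelin that granule cells secrete, with 309, 254, 321, 252.2 and 255 CPM in O. nasuta, against 380.2, 389, 407, 407 and 437 CPM in O. ventralis (log2 fold change -0.54 ± 0.12 SE, adjusted p = 0.00214). Neither gene had overlapping groups. Both calls were lost when the spread was estimated from all 59 libraries of all brain parts (adjusted p of 0.114 for pax6 and 0.307 for reln). That fit had no fish terms, so that libraries of the same fish entered it as independent. The other granule cell genes did not pass the test: zic1 averaged 3892 ± 484 CPM in O. nasuta, against 4523 ± 331 CPM in O. ventralis (adjusted p = 0.155), zic2 3344 ± 424 CPM in O. nasuta, against 3105 ± 303 CPM in O. ventralis (adjusted p = 0.580), and neurod1 1235 ± 325 CPM in O. nasuta, against 1833 ± 668 CPM in O. ventralis (adjusted p = 0.349). The median log2 fold change over the 18 genes was −0.14, against 0.00 over all genes tested. In bulk tissue fewer cells of a type and less RNA per cell cannot be told apart. Of 18 tested genes of Purkinje cells and related inhibitory neurons, 8 of oligodendrocytes, 3 of microglia and leukocytes, 3 of blood vessels and 4 of meninges none was called. With 5.81% of all genes called, the lack of a call in lists this short says little about these cells.

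Among the other genes with the lowest p, camk2n2, an inhibitor of CaM kinase II, was at 154, 159, 109, 189.7 and 189.5 CPM in O. nasuta, against 328, 252.4, 297, 232 and 380.3 CPM in O. ventralis (log2 fold change -0.90 ± 0.15 SE, adjusted p = 9.37e-05). All O. nasuta lay below all O. ventralis. The growth cone protein gene dpysl3 averaged 329 ± 39.6 CPM in O. nasuta, against 515 ± 40.7 CPM in O. ventralis, sgsm2, a regulator of small GTPases, 164 ± 8.14 CPM in O. nasuta, against 287 ± 60.5 CPM in O. ventralis, and carmil1, which acts on actin capping, 134 ± 18.8 CPM in O. nasuta, against 244 ± 56.0 CPM in O. ventralis. Their log2 fold changes were -0.66, -0.80 and -0.84 with adjusted p of 1.32e-04, 1.54e-04 and 2.60e-04. The Rab exchange factor gene dennd4c had 32.8, 0, 6.65, 6.69 and 11.3 CPM in O. nasuta, against 44.6, 49.3, 50.4, 42.2 and 26.8 CPM in O. ventralis, where O. nasuta fish 1 reached into the O. ventralis range (log2 fold change -2.06 ± 0.37 SE, adjusted p = 2.58e-04).

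Further genes with large changes downward were all low: acta1, an actin whose reads can be shared with near-identical copies, averaged 5.23 ± 4.89 CPM in O. nasuta, against 31.7 ± 12.5 CPM in O. ventralis (log2 fold change -2.09, adjusted p = 0.00174), and the nucleotidase entpd4 13.0 ± 9.67 CPM in O. nasuta, against 37.1 ± 17.4 CPM in O. ventralis (log2 fold change -1.70, adjusted p = 0.00737). For asnsd1 the means were 6.07 ± 4.82 CPM in O. nasuta, against 19.7 ± 5.61 CPM in O. ventralis (adjusted p = 0.0404), for fbxl15, an F-box protein, 10.4 ± 5.59 CPM in O. nasuta, against 28.7 ± 6.25 CPM in O. ventralis (adjusted p = 0.00611), and the values of spast, a microtubule-severing protein, were 4.68, 13.5, 8.86, 4.46 and 5.66 CPM in the O. nasuta fish, against 14.2, 32.3, 17.8, 18.1 and 17.9 CPM in the O. ventralis fish (adjusted p = 0.0450). The calls of asnsd1 and spast were lost in 8 of 14 and 8 of 13 alternatives. Those of acta1 and entpd4 were lost with the spread of all 59 libraries (adjusted p of 0.144 and 0.0518). That of fbxl15 was lost after thinning (adjusted p = 0.212).

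The circadian clock is a loop in which arntl and clock activate their own repressors, and transcription factors such as tef carry its rhythm to other genes. In the cerebellum 3 of 11 tested clock genes were called (27.3% against 5.81% of all genes), with tef and csnk1e higher and arntl lower in O. nasuta. The output factor tef was at 992, 1190.2, 1024, 678 and 601 CPM in O. nasuta and at 344, 277, 211, 298 and 205 CPM in O. ventralis. Every O. nasuta was well above every O. ventralis, and the log2 fold change was 1.71 ± 0.22 SE (adjusted p = 6.85e-04). The activator arntl was at 28.1, 23.7, 35.4, 35.7 and 56.6 CPM in O. nasuta and at 94.5, 94.9, 68.3, 90.4 and 91.1 CPM in O. ventralis. Here the order was turned round with no overlap, and the log2 fold change was -1.19 ± 0.21 SE (adjusted p = 1.65e-04). The kinase csnk1e, which phosphorylates the repressors, was at 182, 257, 304, 189.7 and 260.2 CPM in O. nasuta and at 136, 163, 145, 187 and 146 CPM in O. ventralis, with overlapping groups (log2 fold change 0.66, adjusted p = 0.00304).

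The partner of arntl, clock, was at 4.68, 3.38, 13.3, 20.1 and 25.5 CPM in O. nasuta, against 27.0, 38.0, 41.5, 15.1 and 35.7 CPM in O. ventralis and did not pass the test (log2 fold change -0.95 ± 0.34 SE, adjusted p = 0.0901). The repressor bhlhe41 was at 108, 186, 86.4, 46.9 and 31.1 CPM in O. nasuta, against 27.0, 15.2, 29.7, 30.1 and 33.9 CPM in O. ventralis. Its O. nasuta fish spanned a wide range and fish 5 fell within the range of O. ventralis (log2 fold change 1.61 ± 0.51 SE, adjusted p = 0.114). The genes bhlhe40, nfil3, hlf, rora and rorb had log2 fold changes between -0.80 and 0.64 and adjusted p of 0.132 or more. The hour of death was not the same in the species, since all O. nasuta were dissected before all O. ventralis, and cannot be told apart from species for these genes.

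The same clock genes were measured in the other parts of these brains, which share the fish with the cerebellum. For tef the log2 fold change passed the test in all 5 other parts, at 1.83 in the optic tectum, 1.70 in the brain stem, 1.46 in the olfactory bulb, 1.15 in the telencephalon and 0.93 in the diencephalon. For arntl it was -0.60 in the optic tectum (adjusted p = 0.0246) and -0.63 in the telencephalon (adjusted p = 0.0406), and between -0.88 and -0.60 without passing the test in the other 3. The cerebellum value of arntl was the largest of the 6, but the difference from the mean of the other parts did not pass the test (log2 difference -0.65 ± 0.24 SE, adjusted p = 0.436). The value for bhlhe41 was 2.40 ± 0.39 SE in the optic tectum (adjusted p = 9.61e-04) and -0.21 ± 0.19 SE in the diencephalon (adjusted p = 0.637).

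**Figure D4:**
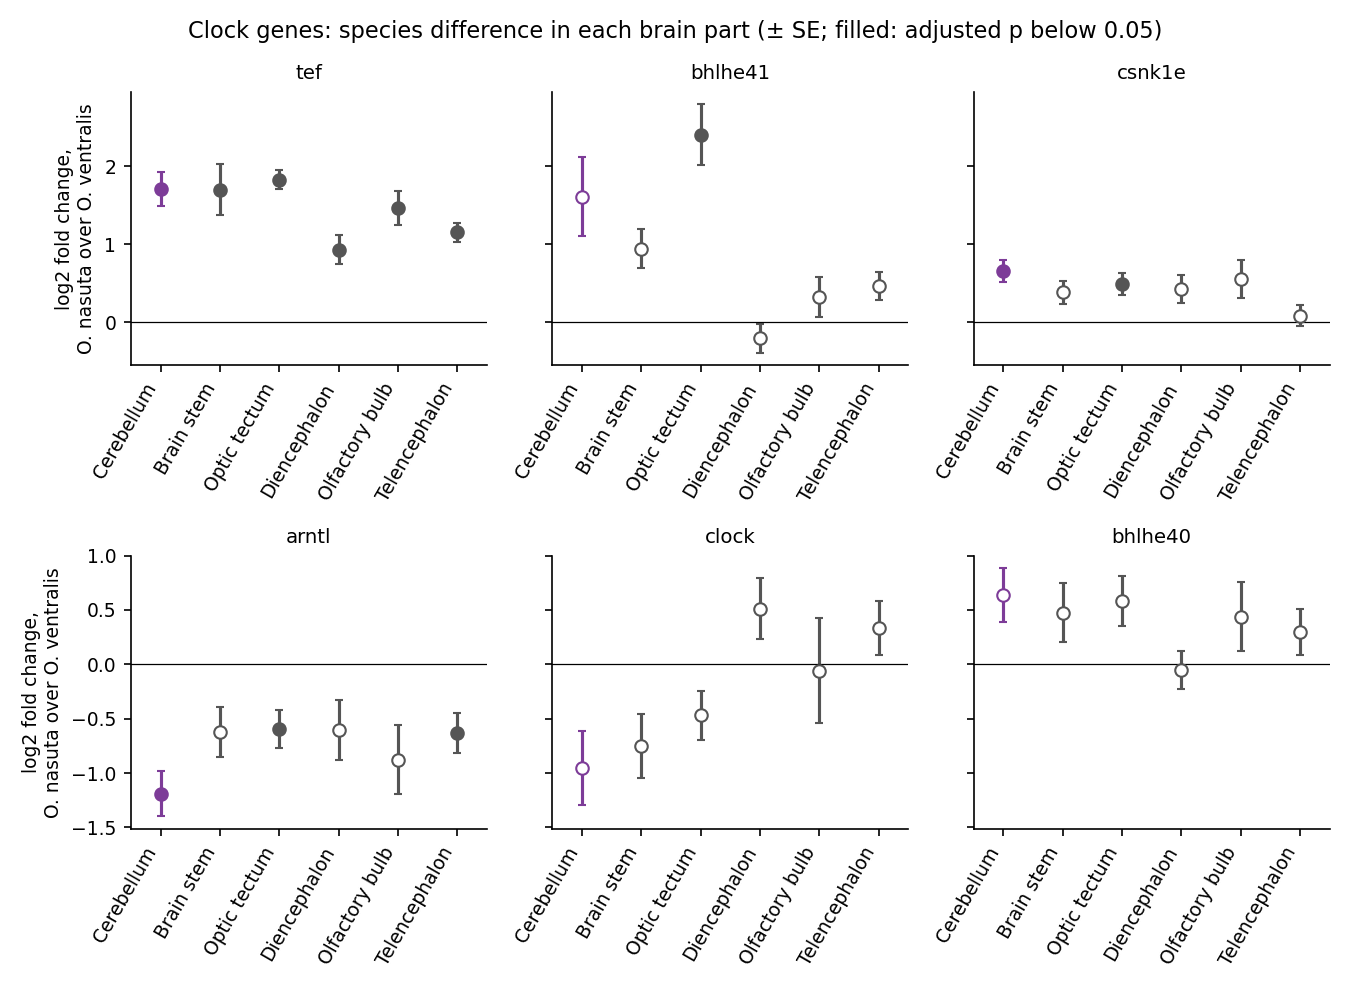
Log2 fold change of O. nasuta over O. ventralis for 6 clock genes in each of the 6 brain parts, with SE bars; the cerebellum is purple and filled points passed an adjusted p of 0.05. The tef points are filled in all 6 parts, and the cerebellum points of bhlhe41, clock and bhlhe40 are open.

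Of 9 tested genes of the glucocorticoid and energy stress list 3 rose in O. nasuta and none fell (33.3%, against 5.81% of all genes called). Of the 9 genes 5 had values above 0, and the median log2 fold change was 0.20. The transcription factor zbtb16, which glucocorticoids induce in mammals, was at 496, 433, 357, 522 and 499 CPM in O. nasuta and at 314, 268, 297, 202 and 309 CPM in O. ventralis. The groups did not overlap (log2 fold change 0.71 ± 0.13 SE, adjusted p = 1.69e-04). The enzyme hsd11b2, which inactivates cortisol, averaged 47.1 ± 9.24 CPM in O. nasuta, against 21.0 ± 4.89 CPM in O. ventralis (log2 fold change 1.04, adjusted p = 0.00755), a call lost with the spread of all 59 libraries (adjusted p = 0.164). The co-chaperone of steroid receptors fkbp4 averaged 75.5 ± 22.8 CPM in O. nasuta, against 48.7 ± 5.11 CPM in O. ventralis (log2 fold change 0.67, adjusted p = 0.0384), a call lost in 12 of 19 alternatives. The receptors themselves did not pass the test: nr3c1 averaged 205 ± 42.1 CPM in O. nasuta, against 236 ± 27.5 CPM in O. ventralis (adjusted p = 0.411) and nr3c2 429 ± 52.2 CPM in O. nasuta, against 490.1 ± 48.2 CPM in O. ventralis (adjusted p = 0.351). Of the list's other members sgk1, sesn1, ddit4 and hif1a had log2 fold changes of 0.22, 0.20, -0.26 and -0.33. Their adjusted p were 0.337, 0.651, 0.399 and 0.358. The difference of ddit4 from the mean of the other parts passed the interaction test described below, at -0.81 (adjusted p = 0.0474). None of 6 antigen presentation genes and none of 20 heat shock and chaperone genes was called, against 5.81% of all genes. The lowest adjusted p of the 20 was 0.103, for hspa4.

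Synaptic genes differed in both directions. In the list of synaptic vesicle and release genes 6 of 42 were called (14.3%, against 5.81% of all genes), 3 in each direction, and the median log2 fold change was 0.01. The vesicular glutamate transporter slc17a6 was at 70.2, 23.7, 82.0, 29.0 and 60.8 CPM in O. nasuta and at 16.9, 17.1, 29.7, 27.1 and 7.14 CPM in O. ventralis. O. nasuta fish 2 and 4 were within the range of O. ventralis and the other 3 above it (log2 fold change 1.57 ± 0.32 SE, adjusted p = 0.00214, or 0.106 after thinning). The priming factor unc13a averaged 626 ± 71.1 CPM in O. nasuta, against 446 ± 47.9 CPM in O. ventralis (log2 fold change 0.48, adjusted p = 0.00376, or 0.217 with the spread of all 59 libraries), and the SNARE protein snap23 24.7 ± 7.64 CPM in O. nasuta, against 9.24 ± 6.51 CPM in O. ventralis (log2 fold change 1.26, adjusted p = 0.0489, lost in 8 of 14 alternatives). The active zone protein erc1 fell, with 122, 98.1, 126, 118 and 136 CPM in O. nasuta, against 192, 209, 160.2, 244 and 243 CPM in O. ventralis and no overlap (log2 fold change -0.78 ± 0.15 SE, adjusted p = 4.63e-04). Also lower were the endocytosis protein sh3gl2 (195 ± 16.2 CPM in O. nasuta, 287 ± 82.5 CPM in O. ventralis, adjusted p = 0.0178) and the vesicle GTPase rab3c (362 ± 21.5 CPM in O. nasuta, against 478 ± 59.3 CPM in O. ventralis, adjusted p = 0.0279). Without single fish or under other settings the calls of sh3gl2 and rab3c were lost in 5 and 7 of 19 alternatives.

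Among receptors and channels, 1 of 14 glutamate receptor genes was called (7.14%, against 5.81% of all genes), the kainate receptor subunit grik4 (32.8 ± 6.65 CPM in O. nasuta, 13.7 ± 6.26 CPM in O. ventralis, log2 fold change 1.22, adjusted p = 0.0114), a call lost after thinning (adjusted p = 0.242). None of 8 GABA and glycine receptor genes and none of 3 monoamine, acetylcholine and peptide receptor genes was called, against 5.81% of all genes. Of 9 sodium and calcium channel genes cacna2d2 was the only one called (11.1%, against 5.81% of all genes). Of 12 potassium channel genes the only one was the channel-interacting protein kcnip1 (8.33%, against 5.81% of all genes). Its levels were 88.8 ± 22.3 CPM in O. nasuta, against 53.7 ± 23.5 CPM in O. ventralis (adjusted p = 0.0407, lost in 12 of 19 alternatives). The scaffold gene homer1, which is induced by neuronal activity, was at 88.9, 189, 179, 181 and 185 CPM in O. nasuta, against 107, 112, 119, 109 and 134 CPM in O. ventralis. O. nasuta fish 1 was the lowest of all 10 fish and the other 4 were above every O. ventralis (log2 fold change 0.55 ± 0.16 SE, adjusted p = 0.0269, lost in 10 of 19 alternatives).

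Of 12 activity-induced genes tested, homer1 was the only one called (8.33%, against 5.81% of all genes). The immediate early gene egr1 was at 234, 595, 266, 96.0 and 257 CPM in O. nasuta and at 58.1, 446, 350.2, 211 and 314 CPM in O. ventralis. Its groups covered much the same range (log2 fold change 0.09 ± 0.62 SE, adjusted p = 0.964). The study screened a longer list of genes for behaviour and physiology, and 17 that it detected in the brain were looked at here. Of these 17 genes 9 could be tested in the cerebellum and, against 5.81% of all genes, none of these 9 was called. Besides egr1 these were adrb1 (log2 fold change 0.07), avpi1 (-0.06), fosb (0.12), fosl2 (-0.63), gabarap (-0.07), kpna1 (0.29), nlgn3 (-0.02) and serpini1 (-0.12), with adjusted p of 0.512 or more. At 319.8 ± 40.4 CPM in O. nasuta, against 320.0 ± 31.0 CPM in O. ventralis, the synaptic adhesion gene nlgn3 had a small spread, while fosb averaged 24.1 ± 14.4 CPM in O. nasuta, against 26.9 ± 28.8 CPM in O. ventralis.

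In the solute carrier family 4 of 71 genes rose and 2 fell (8.45% called, against 5.81% of all genes). Higher besides slc17a6 were the calcium exchangers slc24a2 of the cell membrane (165 ± 42.7 CPM in O. nasuta, 104 ± 22.0 CPM in O. ventralis, adjusted p = 0.00332) and slc8b1 of mitochondria (54.7 ± 15.8 CPM in O. nasuta, against 31.4 ± 6.24 CPM in O. ventralis, adjusted p = 0.0137, lost in 5 of 19 alternatives), and the mitochondrial carrier slc25a29 (135 ± 25.4 CPM in O. nasuta, against 96.2 ± 31.5 CPM in O. ventralis, adjusted p = 0.0458). Lower was the GABA transporter slc6a11 (104 ± 15.9 CPM in O. nasuta, against 164 ± 39.0 CPM in O. ventralis, adjusted p = 0.0236, lost in 7 of 19 alternatives). None of 45 nuclear genes of mitochondrial electron transport and ATP synthase passed the test, against 5.81% of all genes. Their median log2 fold change was −0.14 and 11 of 45 were above 0. Of 64 cytosolic ribosomal protein genes, whose reads can be shared with pseudogenes and other copies, rps25 rose and rpl15 fell (log2 fold changes 0.33 and -0.61, adjusted p of 0.0407 and 0.0209), so that 3.12% were called, against 5.81% of all genes. Their calls were lost in 11 and 4 of 19 alternatives, with adjusted p of up to 0.266 and 0.115. Among 13 genes of glutathione, detoxification and redox 1 was called (7.69%, against 5.81% of all genes). It was keap1, the sensor of the oxidative stress response (log2 fold change 1.07, adjusted p = 0.0104, lost in 3 of 19 alternatives). Among 11 genes of cholesterol and fatty acid synthesis only acsl4 was called (9.09%, against 5.81% of all genes).

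A difference in the cerebellum was often called elsewhere in the same brains, in fits made within each part. Of 397 genes called in the cerebellum and tested in all 6 parts, 180 (45.3%) were called in the same direction in at least 1 other part and 217 (54.7%) in none, whereas 92.9% of 6264 genes not called in the cerebellum were called in none in the direction of their cerebellum value. The fits called 123 of 9338 genes (1.32%) in the brain stem, 530 of 9038 (5.86%) in the optic tectum, 250 of 8685 (2.88%) in the diencephalon, 4 of 8671 (0.0461%) in the olfactory bulb and 453 of 8373 (5.41%) in the telencephalon. In all 6 parts 4 genes were called, each higher in O. nasuta: tef, dnajc19, smim19 and LOC100690808. That count could not exceed the 4 genes called in the olfactory bulb. A further 27 of the 397 genes were called in the same direction in 4 of the other 5 parts. In the cerebellum smim19 was at 23.4, 30.4, 13.3, 20.1 and 28.3 CPM in O. nasuta, against 10.1, 13.3, 8.90, 9.04 and 8.93 CPM in O. ventralis, and LOC100690808 at 243, 311, 191, 174 and 119 CPM in O. nasuta, against 57.4, 45.5, 53.4, 24.1 and 58.9 CPM in O. ventralis. Opposite calls were found for ndrg4, higher in the cerebellum (0.32) and lower in the optic tectum (-0.29) of O. nasuta, and for sgsm2, lower in the cerebellum (-0.80) and higher in the telencephalon (0.51).

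Whether the species difference in the cerebellum departed from its mean over the other 5 parts was tested as an interaction over 59 libraries, and 28 of 11680 genes (0.24%) passed, 10 upward (0.0856%) and 18 downward (0.154%) in the O. nasuta cerebellum. Of these 28 genes 27 were tested in the cerebellum itself and 24 were called there, against 5.81% of all genes. Both tests hold the same 10 cerebellum libraries, so that this overlap is no separate support. The count fell to 14 without O. ventralis fish 1 and to 18 without O. nasuta fish 2. The 10 genes with the lowest p were picked for a departure from the other parts, so that few calls elsewhere go with that choice. For 7 of the 10 no other part had a called difference. Of the 397 genes called in the cerebellum and tested in all 6 parts, 54.7% had no call in the same direction elsewhere. The lowest p of these 7 was that of lg6h16orf45, at 84.2, 67.6, 88.6, 100.4 and 63.6 CPM in O. nasuta, against 151, 197, 184, 163 and 152 CPM in O. ventralis in the cerebellum. Its groups did not overlap there, and its log2 fold change was -1.06 ± 0.16 SE in the cerebellum and between -0.11 and 0.24 in the other parts (interaction adjusted p = 1.16e-04).

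LOC100690564 was almost without reads in the O. nasuta cerebellum, at 0, 0, 4.43, 0 and 4.24 CPM in O. nasuta, against 41.9, 49.3, 5.93, 60.3 and 53.6 CPM in O. ventralis. O. ventralis fish 3 was near the O. nasuta fish, and the gene was at 219 CPM in O. nasuta, against 175 CPM in O. ventralis in the olfactory bulb (interaction log2 difference -3.92 ± 0.61 SE, adjusted p = 1.37e-04). The actin-binding gene ablim1 was at 18.7, 27.0, 37.7, 35.7 and 35.4 CPM in the O. nasuta cerebellum and 62.1, 53.1, 89.0, 60.3 and 83.9 CPM in the O. ventralis cerebellum, with log2 fold changes of 0.04 to 0.21 elsewhere (interaction -1.26 ± 0.24 SE, adjusted p = 0.00259). For the glycosyltransferase galnt18 the means were 26.1 ± 11.0 CPM in the O. nasuta cerebellum and 53.0 ± 13.6 CPM in the O. ventralis cerebellum, and the other parts had values above 0, of 0.26 to 0.54, that did not pass the test (interaction -1.51 ± 0.28 SE, adjusted p = 0.00148). The cerebellum call of galnt18 was lost in 3 of 19 alternatives. The loci LOC102076382, LOC100691689 and LOC100711936 had interaction values of -1.55, -1.42 and 0.98, and only LOC100711936 was higher in the O. nasuta cerebellum (91.2 ± 17.0 CPM, against 49.9 ± 12.6 CPM in O. ventralis).

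The other 3 of the 10 were different in several parts and more so in the cerebellum. The log2 fold change of kiaa0100 was 2.08 in the cerebellum and 0.50 to 1.48 elsewhere (interaction adjusted p = 0.00439). For LOC100693993, the locus annotated with circadian regulation, it was -2.45 in the cerebellum and -1.45 to -0.83 elsewhere (interaction adjusted p = 1.16e-04), and for LOC100708109 it was 1.69 in the cerebellum and 0.04 to 0.81 elsewhere (interaction adjusted p = 6.50e-04). Among the genes described above, cdh2, camk2n2, sgsm2, dennd4c and olfml3 passed the interaction test as well, at -0.79, -1.01, -0.97, -2.05 and -2.66, and mprip at 1.72 (adjusted p between 0.0104 and 0.0308). The interaction of olfml3 was lost in 7 of the 10 fits that left out 1 fish, with adjusted p of up to 0.331. The gene pax6 did not pass it (-0.26 ± 0.42 SE, adjusted p = 0.982), and it was lower in the brain stem of O. nasuta too (log2 fold change -1.09, adjusted p = 0.0241).

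**Figure D5:**
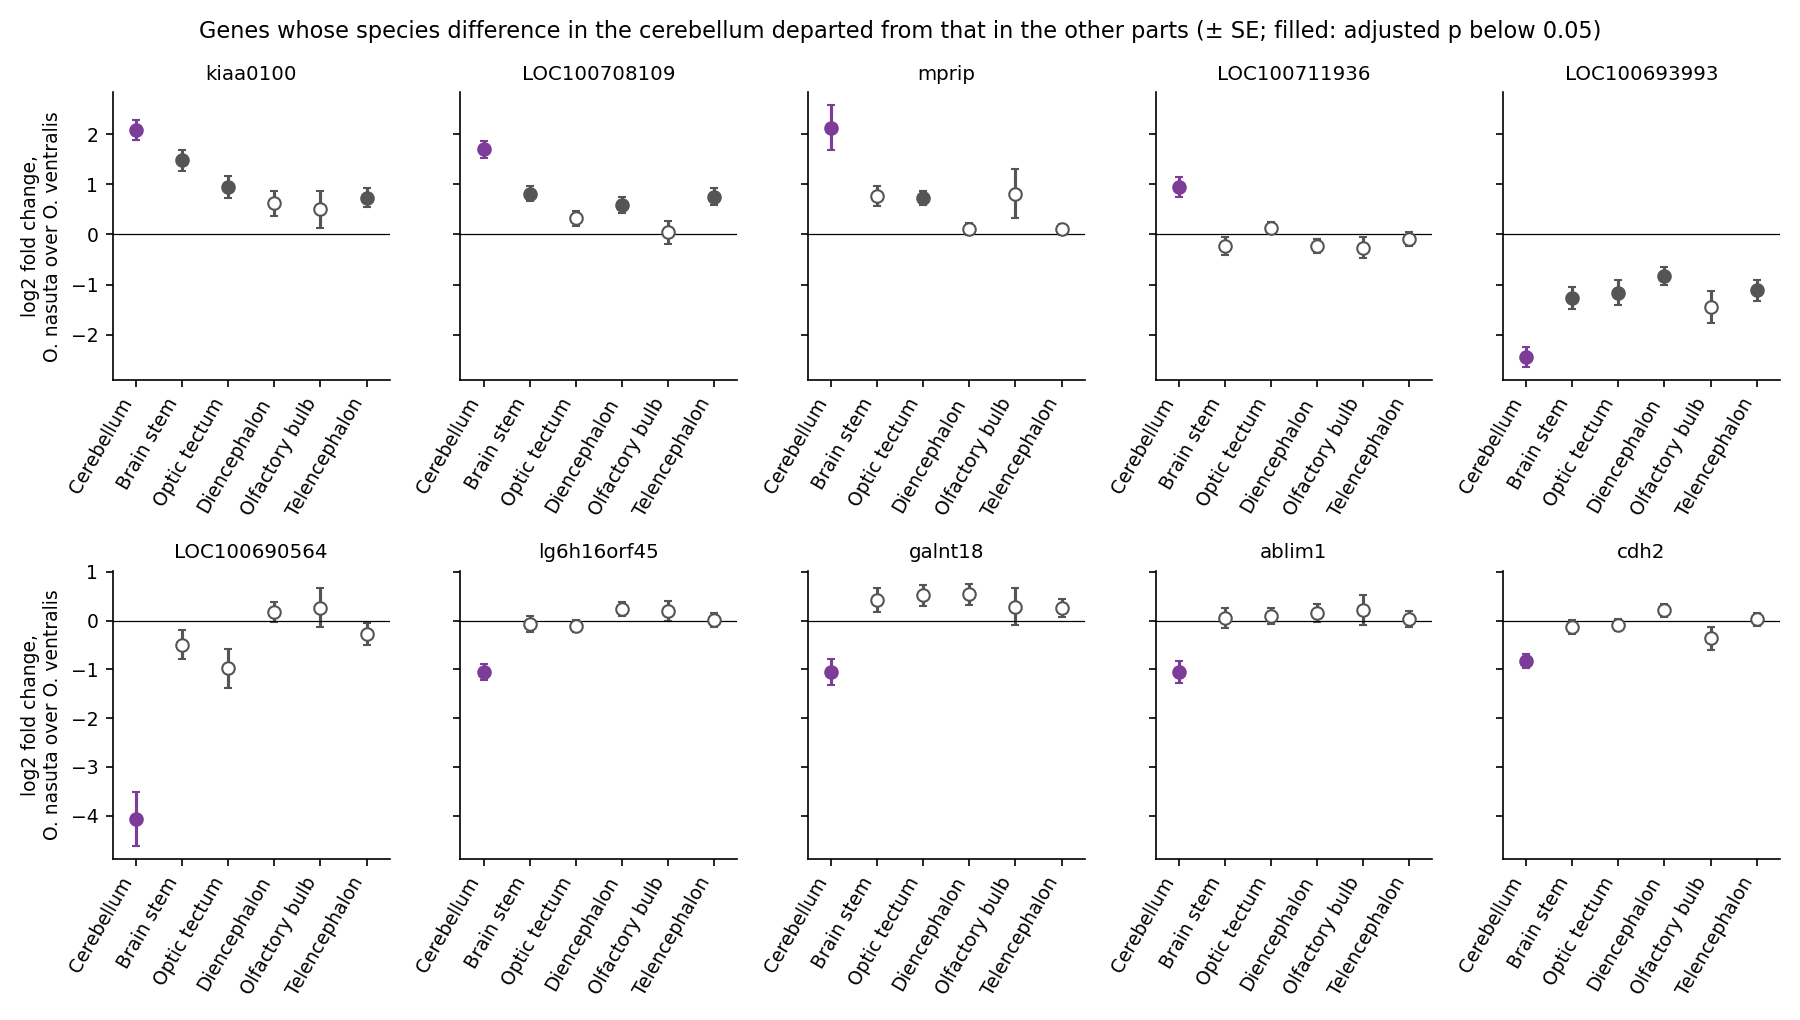
Log2 fold change of O. nasuta over O. ventralis in the 6 brain parts for 10 genes that passed the interaction test, with SE bars; the cerebellum is purple and filled points passed an adjusted p of 0.05 within their part. The scale differs between the rows; in lg6h16orf45, galnt18, ablim1, cdh2, LOC100711936 and LOC100690564 the cerebellum point is the only filled one.

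The locus LOC100709972, which the study annotates with transmembrane transport, was read in 1 species only. It had 5 to 20 counts in each O. nasuta cerebellum, 19.4 to 31.6 CPM of all gene counts, and no count in any O. ventralis cerebellum. Against the 3 counts that could have been missed over the 5 O. ventralis libraries (0.892 CPM), the O. nasuta mean of 25.5 ± 4.80 CPM (SD, n = 5) was at least 28.6-fold higher. This bound pools the 5 O. ventralis libraries and covers counting only, not the spread between fish. The locus did map in O. ventralis, with 84 counts in 14 of 25 libraries of the other parts, against 316 counts in 24 of 24 in O. nasuta. No gene was read in O. ventralis alone above 15 CPM in every fish. Other loci with the lowest p were LOC100711064 (105 ± 19.8 CPM in O. nasuta, 16.6 ± 8.39 CPM in O. ventralis), LOC100705676 (516 ± 81.0 CPM in O. nasuta, against 216 ± 30.3 CPM in O. ventralis) and LOC100706597 (1072 ± 135 CPM in O. nasuta, against 561 ± 48.3 CPM in O. ventralis), all higher in O. nasuta, and LOC102076192 (15.5 ± 5.86 CPM in O. nasuta, 98.1 ± 14.2 CPM in O. ventralis) and LOC100699176 (131 ± 33.8 CPM in O. nasuta, against 311 ± 36.7 CPM in O. ventralis), both lower. None of these loci had overlapping groups, and LOC100711064 and LOC102076192 were beyond 2-fold, with log2 fold changes of 2.70 and -2.68.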

How the data were processed

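Messenger RNA of 6 brain parts of 10 females was sequenced from the 3′ end. After trimming by the authors, STAR 2.5.2b placed the reads on the genome of O. niloticus and HTSeq 0.6.1p1 counted reads on the gene's strand; the deposited values are raw counts of 36499 genes. Between 14.7 and 17.9% of each cerebellum library's uniquely mapped reads fell in no gene or could not be given to 1 gene, and were left out. Reads mapped to several places were left out as well, at 21.5 to 30.2 alignments per 100 uniquely mapped reads. No molecular identifiers were used. The SD in the text is the spread between fish. Each SE was derived from the edgeR fit, as the size of the log2 fold change divided by the square root of its F value. It rests on a spread that the fit moderates over genes and is not a standard error of the fish values themselves. Only the limit of 3 counts is a bound on counting.

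The 10 cerebellum libraries (225512 to 1531632 counts) were scaled by TMM and compared, without pairing, by the quasi-likelihood F-test of edgeR 4.0.16 (R 4.3.3) in genes above 15 CPM in at least 4 libraries, with Benjamini-Hochberg adjustment at 0.05; log2 fold changes are O. nasuta over O. ventralis, and a 2-fold limit was tested with glmTreat. CPM of the species comparison are of tested genes, scaled by TMM. Those of the cell type markers, and of LOC100709972 as a locus read in 1 species only, are of all gene counts without TMM. The olfactory bulb levels of LOC100690564 are from the interaction fit. The interaction fit held 59 libraries with fish terms; O. nasuta olfactory bulb 5 was left out. Library measures were compared by two-sided exact permutation tests. The fits were also run on simulated counts with known changes. These held no effect of a fish shared between its parts and no difference in mapping, so that neither was tested. Alternatives were other normalizations, filters, fits, depths, a replicate block, DESeq2 1.42.0 and leaving out each fish.

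Named are, per direction, the 10 called genes with a symbol and the lowest p, the 5 further with the largest change above 15 CPM, up to 5 loci, up to 3 called members per list, the 10 interaction genes with the lowest p, genes read in 1 species only, the study's behaviour and physiology genes, and all of any count of 5 or fewer; other genes were chosen after their values were seen. The members and lists were chosen with earlier results of these data known. Fish are the replicates, and ages were not given in the sources used here. Some genes of the lists are counted but not reported by name here.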

Additional observations from a re-analysis of the deposited data

Results flagged for a closer look

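Among 172 groups of 5 cerebellum values 8 held a fish far from the other 4 of its species by Dixon's test, where chance gives about 1 in 20 groups. In O. nasuta this was homer1, at 88.9 CPM in fish 1 against 179 to 189 CPM in the others. In O. ventralis mprip was at 418 CPM in fish 5 (others 72.3 to 143 CPM), avpi1 at 91.1 CPM in fish 5 (others 16.9 to 36.2 CPM) and spast at 32.3 CPM in fish 2 (others 14.2 to 18.1 CPM). Values below the rest of O. ventralis were LOC100706597 at 476 CPM in fish 2 (others 569 to 595 CPM), arntl at 68.3 CPM in fish 3 (others 90.4 to 94.9 CPM) and fbxl15 at 17.8 CPM in fish 3 (others 30.1 to 33.9 CPM). The total count of O. ventralis fish 1, 1531632, was above the 344892 to 591498 of its group.

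For 16 of the genes named by the rule given above the species difference in the cerebellum departed from its mean over the other 5 parts in the interaction test of edgeR. Upward in the O. nasuta cerebellum these were mprip (log2 difference 1.72), kiaa0100 (1.15), LOC100708109 (1.13) and LOC100711936 (0.98). Downward were LOC100690564 (-3.92), olfml3 (-2.66), dennd4c (-2.05), LOC102076382 (-1.55), galnt18 (-1.51), LOC100693993 (-1.45), LOC100691689 (-1.42), ablim1 (-1.26), lg6h16orf45 (-1.14), camk2n2 (-1.01), sgsm2 (-0.97) and cdh2 (-0.79).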

How the results depend on the processing

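The 468 genes called in the cerebellum became 464 with DESeq2 size factors, 517 without the filter on low counts, 403 with filterByExpr, 485 with the current edgeR fit, 436 without robust estimates and 334 with DESeq2, which shared 324 with the main calls. With the spread of all 59 libraries there were 290 (149 higher and 141 lower in O. nasuta, 244 shared). That fit had no fish terms and treated the parts of a fish as independent. After thinning to the shallowest library there were 272 (153 higher and 119 lower, 236 shared), where fewer reads were tested. Leaving out 1 fish gave 343 to 445 calls, 185 to 245 higher and 158 to 200 lower. Beyond 2-fold there were 40 genes without the filter and 11 to 18 without 1 fish. The interaction count of 28 was 23 to 33 under other settings and 14 to 25 without 1 fish. The cause of these shifts was not tested. The count of genes read in 1 species only was 1 in O. ventralis above 5 CPM, LOC109203836, and 0 in O. nasuta above 50 CPM. The share of squared distances between species ranged over 23.1 to 26.2%. Of 68 named genes called in the cerebellum 40 kept their call in every alternative run, no gene called in the cerebellum changed direction among them, and fosl2 passed the test under the replicate block alone (adjusted p = 0.0409). Genes that were not called, such as egr1, fosb, avpi1, adrb1 and nlgn3, had values on both sides of 0.

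Fish numbers are shared by the species, but same-numbered fish did not deviate together (correlations of −0.109 to 0.0981 over 5 pairs), so that the number pairs nothing. With the number as a replicate block 472 genes were called, 404 of them shared with the main calls. Counts of under 10 reads in the shallow libraries limit low genes such as rspry1, oraov1 and asnsd1.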
